A study of Homo sapiens with 6 samples.

Results

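The aldehyde dehydrogenases described here are 10 human genes, ALDH1A1, ALDH2, ALDH3A2, ALDH3B1, ALDH4A1, ALDH5A1, ALDH6A1, ALDH7A1, ALDH8A1 and ALDH9A1, chosen by symbol from a table of 60605 gene identifiers. The mean count over all libraries was the only measured value in the rule, to pick 1 row where a symbol had several, and 0 of the 10 members had more than 1 row. The list was drawn up with earlier results of these data known, so the calls below are no independent support for it. The human hepatoma line Huh-7 had been starved and loaded with oleic acid (100 µM, 24 h) before its RNA was sequenced. The 3 control libraries received the DMSO vehicle (0 µM pectolinarigenin). The other 3 received the flavone pectolinarigenin at 100 µM for 24 h. Both groups carry the oleic acid load, so no comparison with unloaded cells was made. Separate cultures behind the libraries of a group are not named in the labels, so the p-values reflect library-to-library spread that may be technical.

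Aldehyde dehydrogenases oxidize reactive aldehydes to carboxylic acids or acyl-CoA, with NAD+ or NADP+ as the electron acceptor. Hepatocytes use them to clear acetaldehyde and the aldehydes left by lipid peroxidation, to make retinoic acid from retinal, and to finish steps in the breakdown of amino acids, choline and long-chain lipids. Members sit in different compartments, with ALDH1A1 in the cytosol, ALDH2, ALDH4A1, ALDH5A1 and ALDH6A1 in mitochondria and ALDH3A2 on membranes of the endoplasmic reticulum and peroxisomes.

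Promoter sequence is shown for the most abundant transcript and for the pair with the largest falls, to let their start regions be read side by side. The bases are those upstream of the RefSeq start (GRCh38.p14), 5′ to 3′ on the gene's own strand, stopped where an exon annotated in GENCODE 29 begins. Capitals mark CCAAT on either strand (ATTGG when it lies on the other one) and GGGCGG on either strand (CCGCCC when it lies on the other one). ALDH1A1 is shown at chr9:72953057-72953303 (minus strand), ALDH6A1 at chr14:74084494-74084703 (minus strand), and ALDH3B1 at chr11:68010077-68010322 (plus strand), upstream of the more downstream of its 2 listed starts. The ALDH1A1 and ALDH3B1 stretches lie inside the span GENCODE 29 gives the gene and hold no annotated exon, and the ALDH6A1 stretch lies just outside its gene.
ALDH1A1: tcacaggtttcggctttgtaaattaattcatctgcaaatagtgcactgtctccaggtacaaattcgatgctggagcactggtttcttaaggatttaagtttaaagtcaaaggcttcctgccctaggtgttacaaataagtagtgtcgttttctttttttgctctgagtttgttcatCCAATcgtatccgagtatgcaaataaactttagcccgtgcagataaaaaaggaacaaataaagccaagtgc
ALDH6A1: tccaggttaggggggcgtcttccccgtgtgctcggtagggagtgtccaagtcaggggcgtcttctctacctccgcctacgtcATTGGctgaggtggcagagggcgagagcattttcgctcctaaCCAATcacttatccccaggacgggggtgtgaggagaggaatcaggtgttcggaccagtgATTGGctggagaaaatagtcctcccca
ALDH3B1: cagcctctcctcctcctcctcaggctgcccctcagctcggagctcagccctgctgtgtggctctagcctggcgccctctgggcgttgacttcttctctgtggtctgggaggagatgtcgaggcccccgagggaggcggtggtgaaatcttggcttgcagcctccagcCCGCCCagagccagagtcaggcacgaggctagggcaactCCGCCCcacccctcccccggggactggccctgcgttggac
The ALDH1A1 stretch held 1 CCAAT and no GGGCGG, the ALDH6A1 stretch 3 CCAAT, and the ALDH3B1 stretch 2 GGGCGG and no CCAAT. Over the whole 250 bases before the start, ALDH6A1 held 4 CCAAT, a number reached or passed by 0.874% of the 35116 listed promoters. This was the highest count among the 12 member windows. The CCAAT 40 to 36 bases before the start lies past the point where an annotated exon of ALDH6A1 begins. At least 3 CCAAT were held by 2.93% of the listed promoters, also over 250 bases. The 9 members with a promoter in the table had 12 windows, since some genes have 2 starts. CCAAT was found in 5 of the 12 windows (5 genes) and in 32.0% of all promoters, and GGGCGG in 6 of the 12 windows (6 genes) and in 42.6% of all promoters. These counts and shares use the whole 250 bases, which in many member windows run past the first base of an annotated exon of the gene. Before that base, whole matches of CCAAT were left only in ALDH1A1, ALDH6A1 and ALDH8A1. Those of GGGCGG were left only in ALDH3B1 and ALDH5A1. The core GCGTG, which the aryl hydrocarbon receptor binds, was found in 2 of the 12 windows, 1 each of ALDH3A2 and ALDH5A1 (32.2% of all promoters). In each of these windows it lay past the first annotated exon base. TATAAA and TGACNNNGC, the core of the antioxidant response element, were found in 0 of the 12 windows (10.7% and 10.9% of all promoters). Both strands were searched for each motif, and matches of different motifs may overlap. These are matches of letters in a window and say nothing of binding.

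Total counts per library were 15140022 to 20311261. Treated library 3 stood apart, since its counts differed from those of the other treated libraries by a chi-square per degree of freedom of 8.53 and 11.1, against 4.49 between those and 1.52 to 2.75 among controls. All 10 listed hepatocyte genes exceeded 1 FPKM (counts scaled to gene length and library total, as deposited), with a sum of 12680 to 12900 FPKM in control and 9137 to 9943 FPKM in treated libraries. Of other cell types' markers, 0 of 5 stromal genes exceeded 1 FPKM on average, with COL1A2, DCN and LUM at 0, while PECAM1 (of 4 endothelial), CD14 (of 5 immune) and KRT19 and SOX9 (of 4 cholangiocyte) did. The summed level in control and treated libraries was 0.35 to 0.49 and 0.1 to 0.14 FPKM for stromal, 2.32 to 2.63 and 1.16 to 1.37 FPKM for endothelial, 2.84 to 3.67 and 1.98 to 2.26 FPKM for immune, and 45.73 to 47.29 and 46.45 to 50.4 FPKM for cholangiocyte markers. CLEC4M and MS4A1 were at 0. The hepatocyte, stromal, endothelial and immune sums were lower in treated libraries, as most members were, and their part in the results below was not tested.

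Pectolinarigenin-treated cells had lower transcript levels of 8 of the 9 aldehyde dehydrogenases that could be tested. These were ALDH1A1, ALDH2, ALDH3A2, ALDH3B1, ALDH5A1, ALDH6A1, ALDH7A1 and ALDH9A1. The changes were moderate, from 0.874 of the control level for ALDH9A1 to 0.559 for ALDH3B1, and 0 members changed at least 2-fold. ALDH4A1 did not pass the test, and ALDH8A1 was too low to be tested. No tested member was higher.

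The test was edgeR's quasi-likelihood test on counts, over 12829 genes with a mean of at least 1 FPKM across all 6 libraries, at a Benjamini-Hochberg adjusted p under 0.05. Of all genes tested, 25.3% were lower and 25.3% higher by the same rule, together 50.6%. The median log2 fold change of the 9 members was -0.30, against 0.00071 for all tested genes, whose quartiles lay at -0.25 and 0.24. Lower by at least 1.5-fold were 2 members, ALDH3B1 and ALDH6A1, and 7.01% of all genes tested. In the same 8 members the 3 treated FPKM values all lay below the 3 control values, which held for 25.4% of all genes tested. All 3 treated values lay above the control values in 0 members and in 33.5% of all genes tested. In bulk libraries, fewer cells of a type and less RNA per cell cannot be told apart.

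**Figure D1:**
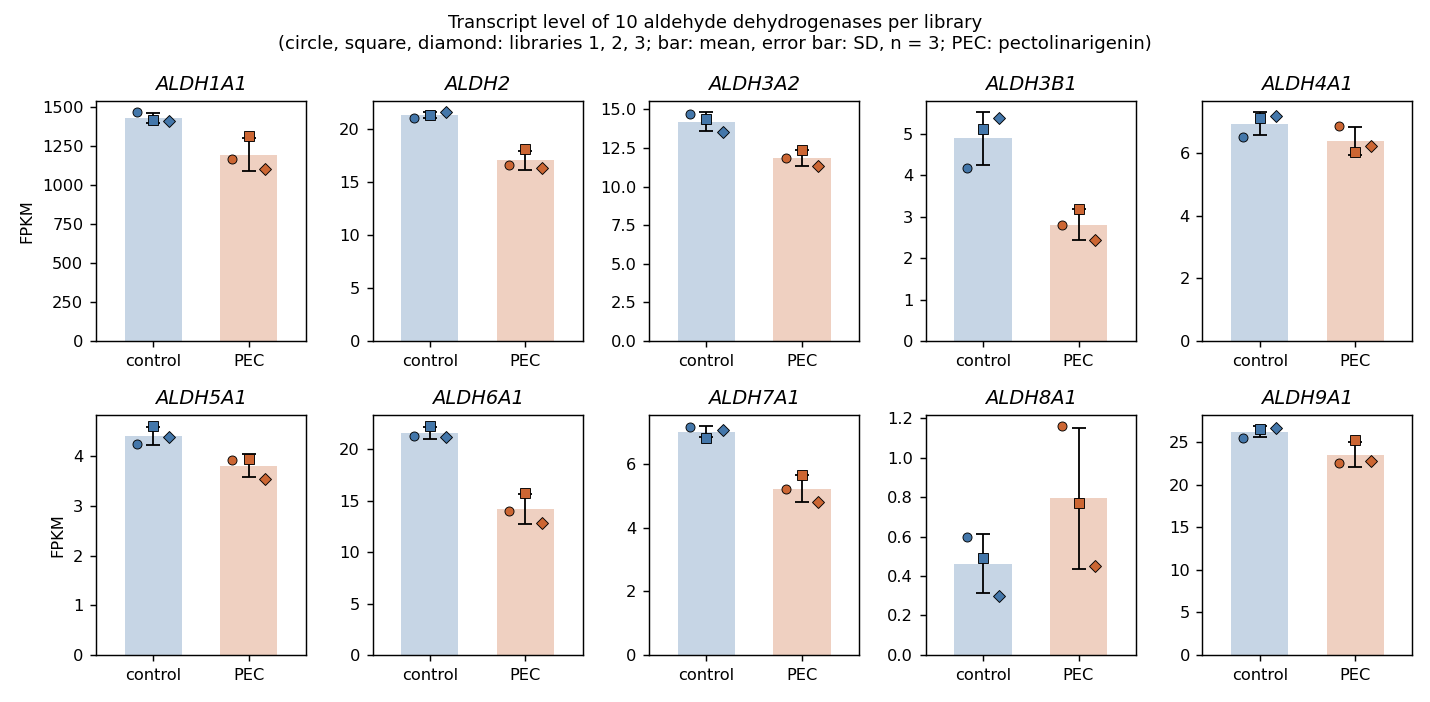
FPKM of each of the 10 members in each library (y axes start at 0; points are libraries 1 to 3, bars are means and error bars are SD, n = 3 per group; PEC is pectolinarigenin). Treated points lie wholly below control points for 8 members, and the groups overlap for ALDH4A1 and ALDH8A1.

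ALDH1A1 (ENSG00000165092, chromosome 9, 72900662 to 73080442, minus strand, GRCh38) makes retinoic acid from retinal in the cytosol and also takes aldehydes from lipid peroxidation. Its level was 1469.47, 1418.3 and 1412.1 FPKM in control libraries 1 to 3 and 1166, 1314.19 and 1107.6 FPKM in treated libraries 1 to 3. Every treated library was below every control library, and treated library 2 came closest. Group means were 1433 ± 31 and 1196 ± 107 FPKM (SD, n = 3). The log2 fold change was -0.30 (SE 0.065, edgeR adjusted p = 0.00134).

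That single transcript made up nearly all of the summed level of the members. In control libraries it took 93.05% ± 0.24 (SD, n = 3) of the summed FPKM of the 10 genes, and in treated libraries 93.3% ± 0.19 (SD, n = 3). The sum itself was 1540 ± 30 FPKM in control and 1281 ± 112 FPKM in treated libraries (SD, n = 3 each). Without ALDH1A1 the sum was 107.1 ± 1.8 FPKM and 85.7 ± 5.1 FPKM. The part held by ALDH1A1 thus differed by about its spread while both parts of the sum were lower. ALDH1A1 ranked 17 of the 12829 tested genes by control FPKM, and the next member, ALDH9A1, ranked 1549.

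ALDH2 (ENSG00000111275, chromosome 12, 111766887 to 111817529, plus strand) is the mitochondrial enzyme that clears acetaldehyde formed from ethanol. It was at 21.05, 21.34 and 21.61 FPKM in control and 16.66, 18.12 and 16.39 FPKM in treated libraries. The control libraries were tightly grouped and the treated ones all lower. Its log2 fold change was -0.36 (SE 0.055, edgeR adjusted p = 7.54e-05).

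Among the enzymes of lipid aldehydes, both members fell. ALDH3A2 (ENSG00000072210, chromosome 17, 19648136 to 19677598, plus strand) oxidizes long-chain fatty aldehydes and is the gene mutated in Sjögren-Larsson syndrome. Its values were 14.72, 14.37 and 13.53 FPKM in control and 11.88, 12.38 and 11.34 FPKM in treated libraries, with no overlap (log2 fold change -0.30, SE 0.057, edgeR adjusted p = 0.000487). ALDH3B1 (ENSG00000006534, chromosome 11, 68008578 to 68029282, plus strand) acts on medium- and long-chain aldehydes from lipid peroxidation. It was at 4.17, 5.11 and 5.37 FPKM in control and 2.8, 3.19 and 2.43 FPKM in treated libraries. Control library 1 was the lowest of its group and still above each treated library. The fall was the largest of the tested members, at -0.84 on the log2 scale (SE 0.11, edgeR adjusted p = 1.66e-05), and 3.47% of all tested genes had a lower log2 fold change.

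The members that finish amino acid breakdown differed in how far they changed. ALDH6A1 (ENSG00000119711, chromosome 14, 74056850 to 74084493, minus strand), the methylmalonate semialdehyde dehydrogenase of valine and thymine breakdown, was at 21.28, 22.26 and 21.16 FPKM in control and 14.01, 15.71 and 12.86 FPKM in treated libraries. The gap between the groups was wider than the spread within either. The mean of ALDH6A1 was 21.57 ± 0.60 FPKM in control and 14.19 ± 1.43 FPKM in treated libraries (SD, n = 3), a log2 fold change of -0.64 (SE 0.066, edgeR adjusted p = 1.99e-06). ALDH7A1 (ENSG00000164904, chromosome 5, 126531200 to 126595418, minus strand), which oxidizes the semialdehyde formed from lysine and also betaine aldehyde, was at 7.18, 6.84 and 7.07 FPKM in control and 5.23, 5.65 and 4.8 FPKM in treated libraries. All treated values were lower (log2 fold change -0.47, SE 0.062, edgeR adjusted p = 2.02e-05).

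Smaller changes were measured for ALDH5A1, ALDH9A1 and ALDH4A1. ALDH5A1 (ENSG00000112294, chromosome 6, 24494852 to 24537207, plus strand), which turns succinic semialdehyde from GABA into succinate, was at 4.24, 4.61 and 4.38 FPKM in control and 3.93, 3.95 and 3.54 FPKM in treated libraries. The groups did not overlap, but the nearest libraries were close (log2 fold change -0.25, SE 0.074, edgeR adjusted p = 0.0103). Without control library 2 the log2 fold change of ALDH5A1 was -0.22 (edgeR adjusted p = 0.0587), so the call was lost without that library. ALDH9A1 (ENSG00000143149, chromosome 1, 165662216 to 165698863, minus strand), an enzyme of carnitine synthesis, was at 25.51, 26.64 and 26.66 FPKM in control and 22.58, 25.3 and 22.85 FPKM in treated libraries. Treated library 2 lay just under control library 1 (log2 fold change -0.19, SE 0.059, edgeR adjusted p = 0.0133). For ALDH9A1 the edgeR adjusted p was 0.0546 without control library 2 and 0.0522 without control library 3.

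ALDH4A1 (ENSG00000159423, chromosome 1, 18871430 to 18902781, minus strand), which makes glutamate in the breakdown of proline, was at 6.52, 7.13 and 7.17 FPKM in control and 6.88, 6.03 and 6.22 FPKM in treated libraries. Treated library 1 was above control library 1, so the groups overlapped. The log2 fold change was -0.16 (SE 0.082, edgeR adjusted p = 0.12). GENCODE 29 lists a second gene on the same strand, AL080251.1, that shares 41.1% of the exonic bases of ALDH4A1. AL080251.1 is not among the 60605 deposited gene identifiers, so whether it affected the counts of ALDH4A1 is not known.

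ALDH8A1 (ENSG00000118514, chromosome 6, 134917390 to 134950122, minus strand) acts in the kynurenine route of tryptophan breakdown. Its mean of 0.628 FPKM was under the minimum. It had 32, 26 and 13 counts in control and 53, 36 and 26 in treated libraries, with treated library 1 highest. Its FPKM were 0.6, 0.49 and 0.3 in control and 1.16, 0.77 and 0.45 in treated libraries, so the groups overlapped. With no expression filter ALDH8A1 had a log2 fold change of 0.70 (SE 0.26, edgeR adjusted p = 0.033), and with edgeR's own count filter 0.70 (SE 0.33, edgeR adjusted p = 0.0931).

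**Figure D2:**
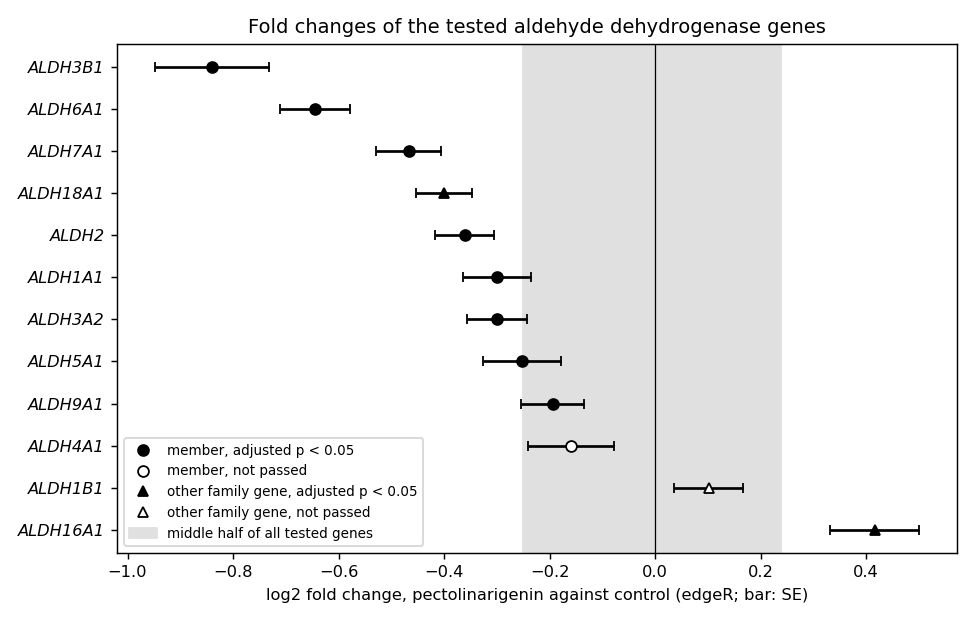
Log2 fold change (x axis; edgeR, pectolinarigenin against control, bars are SE) of the 9 tested members (circles) and the 3 tested other family genes (triangles); filled symbols passed an adjusted p under 0.05, and the grey band spans the quartiles of all 12829 tested genes. The 9 members lie left of 0, from -0.16 for ALDH4A1 to -0.84 for ALDH3B1, and ALDH16A1 lies right of it at 0.42.

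Within the treated group most tested members were highest in the same library, while the order of the other libraries varied. Treated library 2 was the highest of the 3 in 8 of the 9 tested members, all but ALDH4A1. That library was the highest in 31.8% of all tested genes and in 36.1% of those called lower. The members were measured in the same libraries, so these 8 are not separate observations. Treated library 3, the deepest, gave the highest value in 0 of the 9, against 32.2% of all tested genes and 17.3% of those called lower. Without treated library 2 or without treated library 3, 8 members were still called lower.

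The order of the members by level depends on the length used. By deposited FPKM in control libraries it ran from ALDH1A1 through ALDH9A1 (26.27 ± 0.66), ALDH6A1 (21.57 ± 0.60), ALDH2 (21.33 ± 0.28), ALDH3A2 (14.21 ± 0.61), ALDH7A1 (7.03 ± 0.17), ALDH4A1 (6.94 ± 0.36), ALDH3B1 (4.88 ± 0.63) and ALDH5A1 (4.41 ± 0.19) to ALDH8A1 (0.463 ± 0.152; SD, n = 3 each). Of neighbours in that order, ALDH6A1 and ALDH2, ALDH7A1 and ALDH4A1, and ALDH3B1 and ALDH5A1 overlapped. By the same FPKM each of these pairs was apart or reversed in treated libraries. There ALDH2 was above ALDH6A1, ALDH4A1 above ALDH7A1 and ALDH5A1 above ALDH3B1 in every library. The ratio of ALDH6A1 to ALDH2 was 0.979 to 1.04 in control and 0.785 to 0.867 in treated libraries, and that of ALDH3B1 to ALDH5A1 0.983 to 1.23 and 0.686 to 0.808. The ratio of ALDH7A1 to ALDH4A1 was 0.959 to 1.1 in control and 0.76 to 0.937 in treated libraries. These pairs were chosen after their values were seen, and the ratios were not tested.

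The lengths behind the deposited FPKM were worked out from the counts, the total counts and the FPKM, taking these totals as the scaling. They came to 17.9 kb for ALDH7A1 and 15.3 kb for ALDH3A2. The principal transcripts of these genes in GENCODE 29 measure 4.96 kb and 3.93 kb. The summed exon length in GENCODE 29 is 18 kb for ALDH7A1 and 6.46 kb for ALDH3A2. The length worked out for ALDH3A2 is thus longer than this annotation gives. The same holds for ALDH5A1, with 7.56 kb in the FPKM against 5.53 kb of summed exons and 2.27 kb for the principal transcript. The FPKM of ALDH5A1, its rank of 9 (7 by principal transcript) and its ratio to ALDH3B1 rest on that length. Scaled to the principal transcript's length and the library total, a setting added after the data were seen, ALDH3A2 moved from rank 5 to rank 2, at 55.5 ± 2.4 in control libraries, and ALDH2 moved from rank 4 to rank 6, at 21.7 ± 0.3 (SD, n = 3 each). ALDH7A1 was at 25.4 ± 0.6, beside ALDH6A1 at 26.2 ± 0.7. The pairs compared above stood otherwise by this length. ALDH7A1 was above ALDH4A1 in both groups (means 25.4 and 7.49 in control, 18.9 and 6.89 in treated libraries). ALDH5A1 was above ALDH3B1 in both groups (means 14.7 and 11.6 in control, 12.7 and 6.68 in treated libraries). Means of ALDH6A1 and ALDH2 were 26.2 and 21.7 in control and 17.25 and 17.33 in treated libraries. ALDH1A1 stayed first, with 1932 ± 42 and 90.82% of the sum. The length does not enter the fold changes, which compare a gene with itself.

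**Figure D3:**
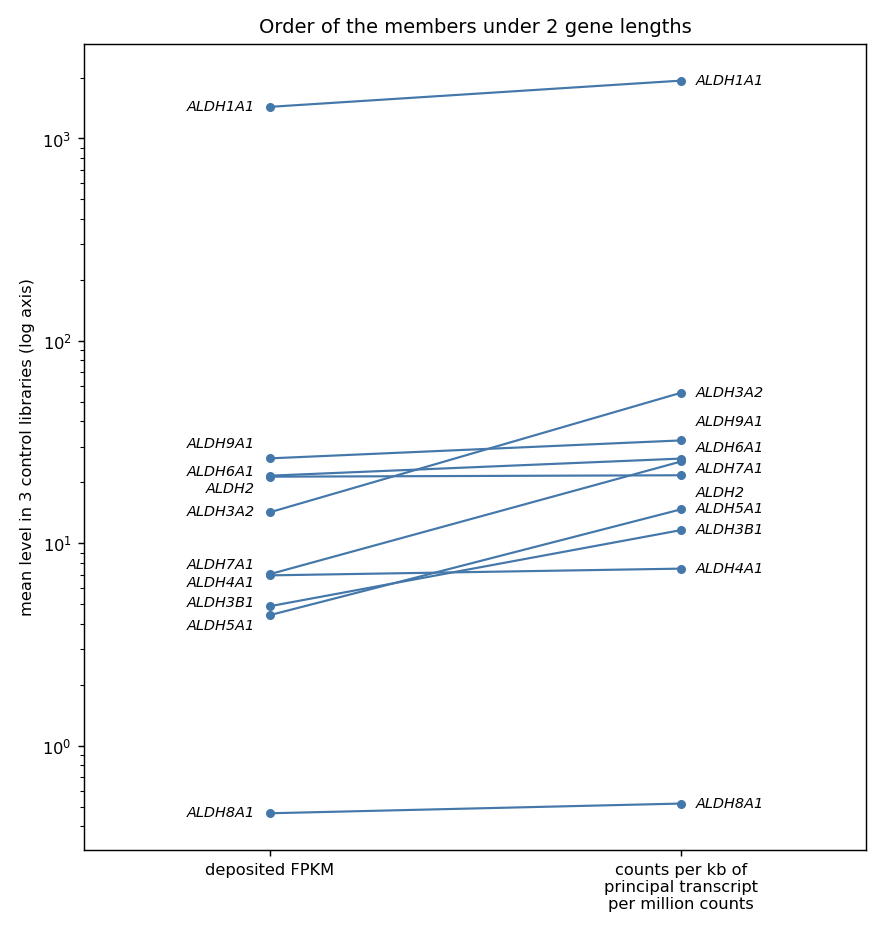
Mean level of each member in the 3 control libraries (log axis), as deposited FPKM on the left and as counts scaled to principal transcript length and library total on the right; lines join the same gene. ALDH3A2 and ALDH7A1 climb from 14.2 and 7.03 to 55.5 and 25.4, while ALDH1A1 stays at the top and ALDH8A1 at the bottom.

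In GENCODE 29, exons of another gene overlap those of ALDH2, ALDH4A1, ALDH5A1, ALDH6A1, ALDH8A1 and ALDH9A1. Beside the overlap of ALDH4A1 given above, those on the same strand are AC002996.1 over 7.0% of the exonic bases of ALDH2, with 0 or 1 counts per library, and the small RNA RF00019 over 3.11% of those of ALDH9A1, with 0 counts. On the other strand, AL445190.1 covers 1.46% of ALDH8A1, with 0 counts, and AL451074.1 covers 2.9% of ALDH9A1, with 0 to 7 counts. The annotation also places 10% of the exonic bases of ALDH6A1 opposite exons of BBOF1, which had 67 to 116 counts per library against 1503 to 2775 for ALDH6A1. For ALDH5A1 the overlap is 4.33% with GPLD1, on the other strand, which had 41 to 51 counts. Reads from such bases may have been divided or set aside in counting. The pseudogene ALDH7A1P1 had 0 to 6 counts per library, and ALDH7A1P2, ALDH7A1P3 and ALDH7A1P4 had 0.

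The other 9 genes of the family did not share a direction. ALDH18A1, which makes a precursor of proline rather than oxidizing an aldehyde for disposal, was at 83.86 ± 1.32 FPKM in control and 65.21 ± 1.35 FPKM in treated libraries (SD, n = 3). It fell by 0.40 on the log2 scale (SE 0.053, edgeR adjusted p = 1.98e-05). ALDH16A1 was at 6.87 ± 0.57 FPKM in control and 9.4 ± 0.81 FPKM in treated libraries (SD, n = 3). It rose by 0.42 on the log2 scale (SE 0.084, edgeR adjusted p = 0.000816). Reads of ALDH16A1 may overlap PIH1D1 on the opposite strand over 3.27% of its exonic bases. ALDH1B1, a mitochondrial relative of ALDH2, was at 11.72, 11.82 and 11.51 FPKM in control and 13.11, 13.15 and 12.38 FPKM in treated libraries. These groups did not overlap, but ALDH1B1 did not pass (log2 fold change 0.10, SE 0.065, edgeR adjusted p = 0.211). It did pass in limma on log2(FPKM + 1), without TMM factors (log2 fold change 0.13, limma adjusted p = 0.0436).

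The remaining 6 family genes were under the minimum level. ALDH1A2, another retinal dehydrogenase, had 82, 91 and 59 counts in control and 37, 54 and 43 in treated libraries, each treated library below each control library. With no expression filter its log2 fold change was -0.80 (SE 0.19, edgeR adjusted p = 0.000249). With edgeR's own count filter it was -0.81 (SE 0.20, edgeR adjusted p = 0.00297). ALDH1L2, a mitochondrial enzyme of folate metabolism, had 79, 75 and 66 against 106, 89 and 90 counts. Its log2 fold change with no expression filter was 0.36 (SE 0.17, edgeR adjusted p = 0.113). ALDH3A1, a known target of the aryl hydrocarbon receptor, had 22 to 31 counts in control and 22 to 27 in treated libraries. ALDH1A3 and ALDH1L1 had at most 4 and 2 counts per library. ALDH3B2 had 0 counts in each library, which allows up to 0.148 to 0.198 CPM (3 counts of each library total), for counting error alone.

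Enzymes next to the members' steps were taken from 9 lists, drawn up, like the members, with earlier results of these data known. In the list of alcohol and aldehyde oxidation and reduction, 7 of 8 tested genes fell and 0 rose, with a median log2 fold change of -0.54. Of all tested genes, 25.3% were lower and 25.3% higher by the same rule. ADH6, an alcohol dehydrogenase, was at 9.88, 9.38 and 8.94 FPKM in control and 2.77, 3.25 and 1.71 FPKM in treated libraries, and its log2 fold change was -1.93 (SE 0.15, edgeR adjusted p = 1.07e-07). CAT, catalase, was the gene that did not pass (log2 fold change 0.09, SE 0.053, edgeR adjusted p = 0.169). In this list the direction was that of ALDH2 and ALDH1A1, while the genes too low to be tested included ADH1A, ADH1B, ADH1C, ADH4 and CYP2E1.

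Of 15 tested genes of retinoid handling, the steps on either side of ALDH1A1, 6 rose, 1 fell and 8 did not pass, with a median log2 fold change of 0.16. By the same rule 25.3% of all tested genes were higher. CYP26B1, which breaks down retinoic acid, rose by 0.49 on the log2 scale (SE 0.085, edgeR adjusted p = 0.000235). CYP26A1, a gene induced by retinoic acid, was at 0.54, 0.54 and 0.67 FPKM in control and 1.39, 0.97 and 3.41 FPKM in treated libraries (log2 fold change 1.73, SE 0.39, edgeR adjusted p = 0.00173). Its value rests largely on treated library 3, without which CYP26A1 missed the minimum level and was not tested.

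The counts that follow stand beside 25.3% lower and 25.3% higher among all tested genes. Around ALDH3A2, 5 of 9 tested genes of fatty and sphingolipid aldehydes fell and 2 rose (median -0.22). CYP4F3, a fatty acid hydroxylase, changed by -1.51 (SE 0.11) and CYP4V2, another hydroxylase of that family, by 0.72 (SE 0.094). Around ALDH4A1, 4 of 10 genes of proline and glutamate fell and 2 rose (median -0.011), led by GLUD1, glutamate dehydrogenase, at -1.16 (SE 0.076) and OAT, ornithine aminotransferase, at 0.95 (SE 0.061). Around ALDH5A1, 4 of 6 genes of GABA and succinate fell and 0 rose (median -0.19), among them AKR7A2, which is also in the alcohol and aldehyde list. ABAT, the GABA transaminase one step before ALDH5A1, changed by -1.13 (SE 0.089).

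Around ALDH6A1, 12 of 23 genes of branched-chain amino acid and pyrimidine breakdown fell and 2 rose (median -0.18). DPYD, which starts pyrimidine breakdown, was at -0.59 (SE 0.077), BCKDHB, a subunit of the branched-chain ketoacid dehydrogenase, at -0.56 (SE 0.063) and BCAT1 at 0.48 (SE 0.064). Around ALDH7A1, 6 of 11 genes of lysine, choline and betaine fell and 1 rose (median -0.25), with PIPOX, pipecolic acid oxidase, at -1.18 (SE 0.098) and GCDH at 0.23 (SE 0.068). GCDH did not pass without control library 3 (edgeR adjusted p = 0.0728). Around ALDH9A1, 5 of 9 genes listed under carnitine fell and 2 rose (median -0.26), with the carnitine importer SLC22A5 at -0.57 (SE 0.11). SHMT2, a serine hydroxymethyltransferase placed in that list, was at 0.85 (SE 0.059). SLC22A5 averaged 1.32 FPKM in control and 0.92 in treated libraries, so it met the minimum of 1 FPKM only through the controls. The same holds for 2 further genes counted as lower, TMLHE under carnitine (1.2 and 0.84) and CRYM in the lysine list (1.17 and 0.86). Around ALDH8A1, 1 of 5 tested genes of tryptophan and kynurenine fell and 0 rose (median -0.23). This was AFMID, at -0.25 (SE 0.070), which did not pass without control library 2 (edgeR adjusted p = 0.0583). By the same rule 25.3% of all tested genes were lower.

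**Figure D4:**
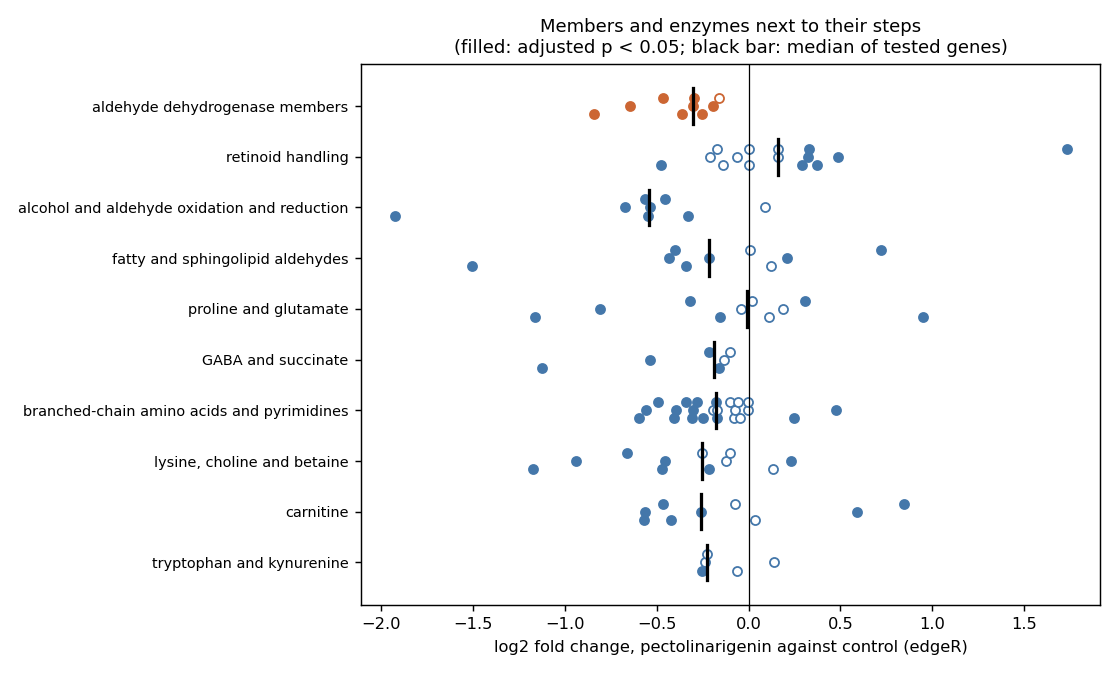
Log2 fold change (x axis; edgeR, pectolinarigenin against control) of each tested member (top row) and each tested gene of the 9 neighbouring lists; filled points passed an adjusted p under 0.05 and black bars are medians. The median is -0.30 for the members, -0.54 for alcohol and aldehyde oxidation and reduction and 0.16 for retinoid handling.

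The genes with the pattern most like that of ALDH3B1 were GALK1, TCIRG1 and the pseudogene TUBBP5. Their root mean square distances from it over the 6 libraries, in log2(FPKM + 1) centred on the control mean, were 0.0377, 0.0548 and 0.0554. Their log2 fold changes were -0.70 (SE 0.088), -0.79 (SE 0.079) and -1.18 (SE 0.22), and the reads of TUBBP5 may be shared with other tubulin genes. The added 1 shrinks changes at low levels, so the distance can be small between genes whose fold changes differ. In limma on log2(FPKM + 1) the changes were -0.62, -0.68 and -0.60, and -0.63 for ALDH3B1.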

How the data were processed

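RNA sequencing covered 6 libraries of Huh-7 cells, 3 per group, with total counts of 15140022 to 20311261. The authors deposited raw counts per gene, which were not normalized, and FPKM values, per the file headers. The submitters' processing notes name cutadapt 1.9.1, HISAT2 2.0.1, HTSeq 0.6.1 and GRCh38. Not given in the sources used here are their roles, the annotation, the strand setting and the treatment of multiply matching reads.

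Counts were tested with edgeR 4.0.16 (R 4.3.3; glmQLFit and glmQLFTest, TMM factors, 2-sided, Benjamini-Hochberg) over genes with a mean FPKM of at least 1, at a threshold of 0.05. SE were derived from the F statistic. The pipeline was run on simulated counts in which a far smaller part of the genes changed than was called here. That run therefore does not test the calls in these data. Alternatives used DESeq2 1.42.0 and limma 3.58.1. Replicates of a group were not copies of one library (chi-square per degree of freedom 1.52 to 11.1). Positions come from GENCODE 29 and promoters from RefSeq.

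The members and gene lists were chosen with earlier results of these data known. The text names all family genes and, per list, the called genes with the largest rise, the largest fall and the smallest p, and the 3 genes nearest in pattern to the member with the largest fall. A gene that this rule names is not reported here.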

Additional observations from a re-analysis of the deposited data

How the results depend on the processing

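Between 6 and 8 members were lower under each alternative run, and the 9 tested members kept their direction in each that tested them, the other scalings included. The call of ALDH5A1 was lost in limma on log2(FPKM + 1) (log2 fold change -0.17, limma adjusted p = 0.0516; 0.0104 to 0.0587 over its alternatives), and that of ALDH9A1 in limma on log2(FPKM + 0.1) (-0.16, limma adjusted p = 0.0505) and without the expression filter (-0.17, edgeR adjusted p = 0.0522; 0.00698 to 0.0546 over its alternatives). ALDH4A1 did not pass in any (0.0597 to 0.341). SLC22A5 was lost in limma on log2(FPKM + 0.1) (limma adjusted p = 0.0528). Without the expression filter 1 member, ALDH8A1, was higher. Of all genes 6486 changed, against 4098 under a minimum mean FPKM of 5, where fewer genes (7144) were tested. Without single libraries 5304 to 6510 genes changed, and 6 to 8 members were lower and 0 higher. Among changed genes 50% were higher, against 56.9% without scaling factors and 57.5% in limma on log2(FPKM + 1). No scaling factors put the median of all tested genes at 0.038. The labels share replicate numbers between groups but do not state that these pair the libraries. Correlations of deviations from group means for libraries with the same number were -0.0025, 0.016 and 0.0018. Such values cannot settle whether the libraries were prepared in pairs. With a replicate block 6540 genes changed and 8 members were lower. ALDH8A1 and 6 other family genes are limited by their low counts.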
